A study of Rattus norvegicus with 16 samples.

Results

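The comparison described here sets the soleus of trained high capacity runners against that of sedentary low capacity runners, the extremes of a design that crosses 2 bred lines with training. Its members were the 4 arrays titled as trained high capacity runner and the 4 titled as sedentary low capacity runner, 8 of the 16 arrays of the study, with all 31042 probe sets that are not array controls. HCR denotes a rat line bred from N:NIH stock for high treadmill running capacity and LCR the line bred from the same stock for low capacity, by a running test at 11 weeks of age in each generation. All rats were females of generation 16 and about 7 months old when killed. HCR trained rats ran uphill at 25 degrees for 1.5 hours a day, 5 days a week for 8 weeks, with intervals run at 85 to 90% of VO2max, the maximal rate of oxygen uptake, and were killed 48 hours after their final run. LCR sedentary rats were age-matched and handled alike, without training or VO2max tests. The other combinations, HCR sedentary and LCR trained, had 4 arrays each. Since line and activity both differ between the compared groups, their parts in any difference cannot be told apart within this comparison. Total RNA from 1 soleus per rat was hybridised to 1 array, which makes 4 rats (n = 4) in each group. With so few arrays, small differences cannot be resolved.

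The soleus is a postural muscle of the hind leg built mostly of slow-twitch fibres, which contract with the slow myosin heavy chain Myh7, are rich in mitochondria and resist fatigue. Fast-twitch fibres use the myosins Myh2, Myh1 and Myh4, in order of increasing speed, rely more on glycolysis and buffer calcium with parvalbumin. Endurance training is known for raising mitochondrial enzymes, capillary supply and fat oxidation in muscle, and the runner lines are known for differing in aerobic metabolism.

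Values are log2 expression levels per probe set, so a difference of 1 is a 2-fold difference. The 8 arrays had medians of 5.90 to 5.97 and pairwise correlations of 0.961 to 0.994, with 0 identical pairs. One array, HCR trained 3, stood apart from the rest of its group. It had low slow fibre transcripts and high fast fibre transcripts, and its mean correlation with its group was 0.964, against 0.978 to 0.982 for the other HCR trained arrays. HCR trained 2 had the highest index of 3' over 5' signal for Gapdh, 1.67, against 0.482 to 0.773 in its group, a control measure that moves with RNA quality and labelling. Neither this index (exact permutation p = 0.571, two-sided) nor the beta-actin index (p = 0.371), the spike-in level (p = 0.229) or the first principal component (p = 0.0857) separated the groups in exact permutation tests, with adjusted values of 0.571, 0.495, 0.457 and 0.343 over the 4 measures, and 4 arrays against 4 cannot give a p under 0.0286. List medians below, and gene differences by the first probe set given, that moved by over 1.5 times without HCR trained 3 are also given without it.

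Trained HCR and sedentary LCR soleus differed in 22 of 31042 probe sets (0.0709%) at an adjusted p of at most 0.05 by limma, 14 higher in HCR trained (0.0451%) and 8 lower (0.0258%). A difference at an unadjusted p under 0.05 was found for 3230 probe sets (10.4%). In each of the 22 the 4 HCR trained values and the 4 LCR sedentary values did not overlap, which was so for 4.62% of all probe sets. Differences ran from 0.51 to 5.74 in size. Of the 22, 10 carry 1 gene symbol: Cox7a1, Myh4, Sc5d, St3gal2, Tstd3, Dok5, Card19 and Slc6a17 were higher, and Dpy19l4 and Ino80c were lower. The other 12 have no symbol in the annotation used here. For 4 of the 22, the means of both groups were below 5.60, the 40th percentile of all values. The count rests on single arrays: it was 86 without HCR trained 3, which kept all 22, 7 without HCR trained 2, 12 without HCR trained 4, 13 without LCR sedentary 1, 5 without LCR sedentary 3 and 6 without LCR sedentary 4. Cox7a1 and 4 unnamed probe sets passed with each of the 8 arrays left out in turn. Fitted on the 8 arrays alone, 4 probe sets passed, 3 of them among the 22 and all 3 unnamed. None of the 10 named genes passed in that fit: Cox7a1 had a limma adjusted p of 0.119 and the others 0.175 to 0.190.

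**Figure D1:**
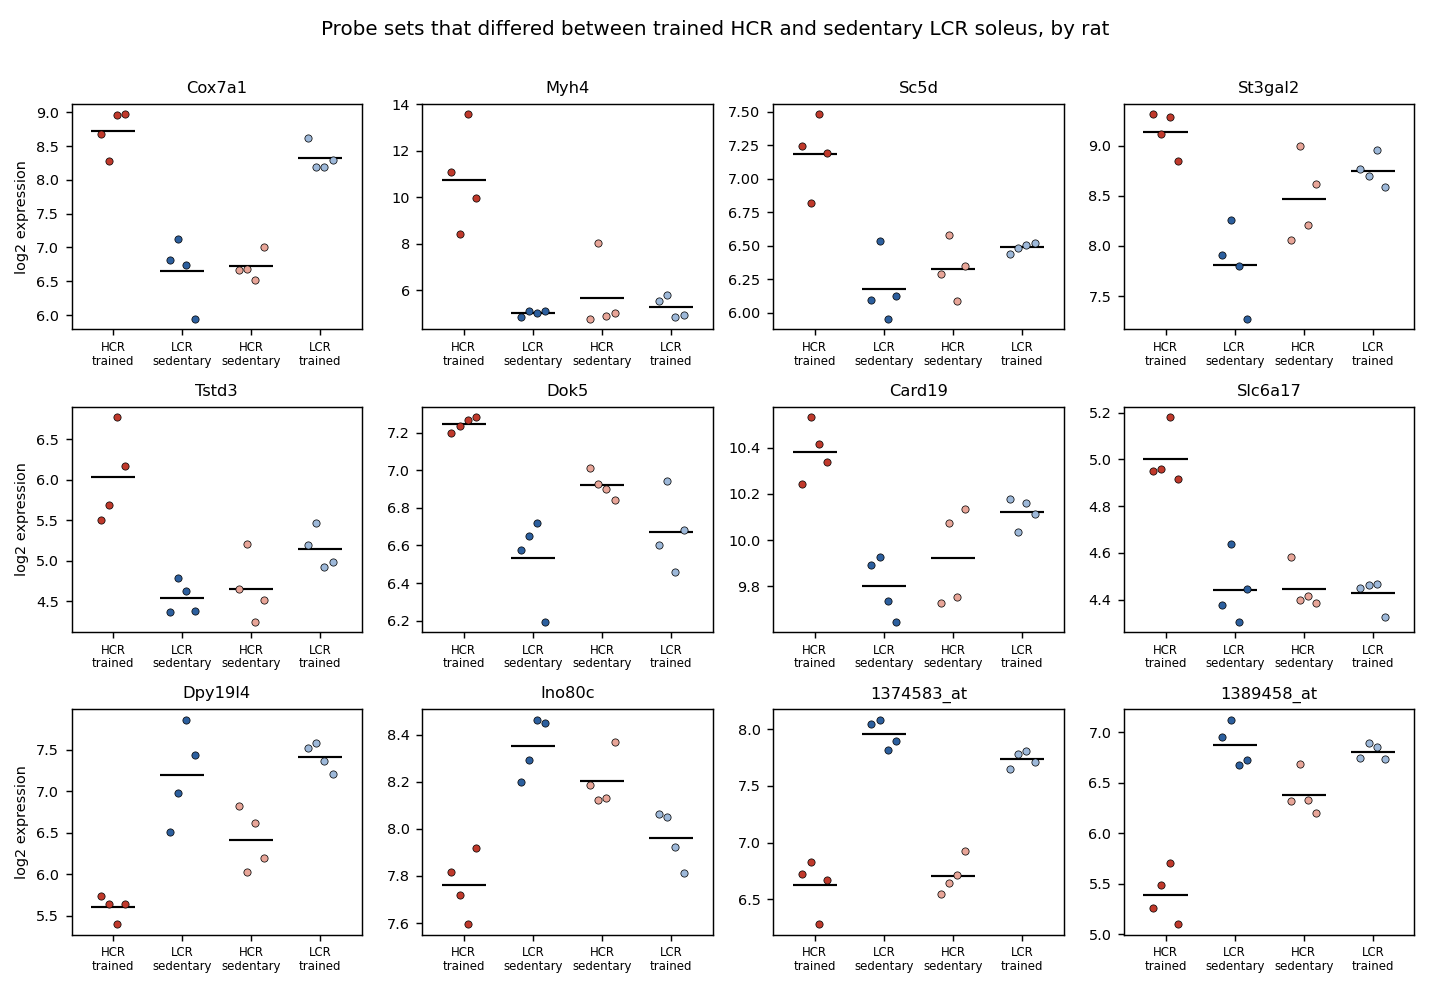
Log2 expression of the 10 named genes and 2 unnamed probe sets past the threshold, 1 point per rat with a bar at the group mean, for all 4 groups and with a separate vertical scale per panel. Cox7a1 is high in both trained groups, Myh4 reaches 8.43 to 13.57 in HCR trained, and 1374583_at is low in both HCR groups.

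Cox7a1 encodes the muscle and heart isoform of a small nuclear-encoded subunit of cytochrome c oxidase, the last complex of the respiratory chain. It read 8.68, 8.28, 8.96 and 8.97 in the HCR trained rats and 6.81, 7.12, 6.74 and 5.94 in the LCR sedentary rats. Every trained HCR value lay more than 1 log2 unit above the highest sedentary LCR value. The difference was 2.07 with a standard error of 0.22, or 4.20-fold (limma adjusted p = 0.00112), and 1.83 to 2.23 with single arrays left out. In the groups outside the comparison it read 6.52 to 7.01 in HCR sedentary and 8.19 to 8.63 in LCR trained rats. LCR trained thus exceeded HCR sedentary by 1.60 (adjusted p = 0.0142), in arrays that the first comparison does not use. Among the other genes of respiratory complexes II to IV none passed, and the next by p, the lung-type subunit Cox4i2, differed by 0.25 (adjusted p = 0.385).

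The largest difference was that of Myh4, the myosin heavy chain of the fastest fibres. It read 11.08, 8.43, 13.57 and 9.98 in HCR trained and 4.83, 5.13, 5.03 and 5.10 in LCR sedentary rats. All 4 trained HCR rats lay far above the sedentary LCR rats, whose values were below 5.60, the 40th percentile of all values, and the trained HCR rats also differed widely among themselves. The deposited values carry no detection calls, so no fold is given against the LCR sedentary level. The difference was 5.74 with a standard error of 0.87 (limma adjusted p = 0.0240), and 4.81 without HCR trained 3 (adjusted p = 0.0183). Leaving out HCR trained 1 or 4 or LCR sedentary 1, 3 or 4 ended the call, with differences of 4.81 to 6.52 over the 8 arrays left out in turn. HCR sedentary rats read 4.76, 8.03, 4.88 and 5.05 and LCR trained rats 5.53, 5.80, 4.84 and 4.95, so 1 HCR sedentary rat came near the lowest HCR trained one.

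Promoters are shown for Cox7a1, the named gene with the smallest p, and for Myh4 and Pvalb, the fast fibre genes with the largest differences. They are the 250 bases before the start of each gene, from RefSeq on assembly GRCr8, 5′ to 3′ on the gene's strand: Cox7a1 at chr1:94568966-94569215 (plus strand), Myh4 at chr10:52421898-52422147 (plus) and Pvalb at chr7:111666290-111666539 (minus). Capitals mark matches to the E-box CANNTG, the CCAAT box, TATAAA, the GC box GGGCGG and the MEF2 motif, searched on both strands, where a capital run can hold overlapping matches.
Cox7a1: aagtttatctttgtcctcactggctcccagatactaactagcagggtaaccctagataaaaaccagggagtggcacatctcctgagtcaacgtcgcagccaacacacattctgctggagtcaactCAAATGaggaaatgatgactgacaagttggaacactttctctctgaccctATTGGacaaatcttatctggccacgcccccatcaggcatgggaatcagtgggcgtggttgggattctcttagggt
Myh4: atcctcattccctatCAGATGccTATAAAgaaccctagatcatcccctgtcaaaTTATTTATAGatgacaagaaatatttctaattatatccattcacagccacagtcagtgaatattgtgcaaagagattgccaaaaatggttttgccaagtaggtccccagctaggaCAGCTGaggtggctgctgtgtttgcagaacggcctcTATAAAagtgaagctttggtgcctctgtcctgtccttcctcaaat
Pvalb: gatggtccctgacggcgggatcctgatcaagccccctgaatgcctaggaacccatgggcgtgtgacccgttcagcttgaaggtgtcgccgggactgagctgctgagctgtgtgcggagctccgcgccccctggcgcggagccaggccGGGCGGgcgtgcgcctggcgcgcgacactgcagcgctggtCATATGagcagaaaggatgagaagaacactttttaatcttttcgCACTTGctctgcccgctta
In the Cox7a1 window the E-box starts 125 bases and the reversed CCAAT box 75 bases before the gene's start. In the Myh4 window TATAAA starts 45 bases before the start and the MEF2 match, which overlaps a reversed TATAAA, 196 bases before it. Among 33469 windows of the same length, 65.5% held an E-box, 34.0% CCAAT, 12.9% TATAAA, 30.5% GGGCGG and 2.96% the MEF2 motif. Windows were found for 9 of the 10 named genes past the threshold: 7 held an E-box, 5 CCAAT, 4 GGGCGG, 1 TATAAA and 1 MEF2, and none held AAGGTCA, TCACNCCAC or the NRF1 motif, which 3.99%, 0.974% and 3.75% of all windows held. These matches describe letters in a window and are not binding sites.

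Other fast fibre genes stood beside Myh4. Pvalb, the calcium buffer parvalbumin, read 8.94, 9.08, 13.80 and 7.82 in HCR trained and 6.14, 5.84, 5.50 and 5.20 in LCR sedentary rats. The groups did not overlap, but the difference of 4.24 did not pass (limma adjusted p = 0.104); without HCR trained 3 it was 2.94 and passed (adjusted p = 0.0180). Actn3, the fast fibre Z-line protein alpha-actinin-3, read 10.76, 11.10, 14.27 and 9.53 against 6.98, 8.60, 7.68 and 6.32, a difference of 4.02 (adjusted p = 0.120). Here too the groups did not overlap, and without HCR trained 3 the difference was 3.07 (adjusted p = 0.125). Mybpc2, fast myosin-binding protein C, differed by 2.99 with overlapping groups, and Casq1, the fast calsequestrin of the calcium store, by 0.34 without overlap; neither passed (adjusted p = 0.363 and 0.232). Without HCR trained 3 these differences were 1.89 and 0.21. Myh2 and Myh1, the other fast myosins, differed by 0.12 and 0.14 with overlapping groups, and for both the sign turned when arrays were left out; Myh1 was at 0.06 without HCR trained 3.

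Of 18 measured fast fibre genes, 17 were above 0 and 1, Myh4, passed, with a median difference of 0.47; without HCR trained 3 the median was 0.17 with 16 above 0. Over all 14217 genes, each by its brightest probe set, 57.9% were above 0 with a median of 0.02 and 8 genes (0.0563%) passed. The groups did not overlap for 5.3% of these genes, and at an unadjusted p under 0.05 a total of 7.07% were higher and 4.12% lower. Of 18 measured slow fibre genes 0 were above 0 and 0 passed, with a median of -0.61. That median was -0.01 without HCR trained 3, with 8 of 18 above 0, so it rested on that array. Tnnt1, slow troponin T, read 13.70, 13.58, 10.19 and 13.92 in HCR trained and 13.75 to 14.13 in LCR sedentary rats. By its brighter probe set Myh7 showed the same single low value, 12.05, against 14.27 to 14.46 in its group and 14.42 to 14.52 in LCR sedentary rats. Its difference of -0.68 (limma adjusted p = 0.560) was -0.10 without that array. A second, dimmer Myh7 probe set gave -3.29 with overlapping groups (adjusted p = 0.339). It read 12.05, 6.07, 7.48 and 11.46 in HCR trained and 10.37 to 13.95 in LCR sedentary rats. There HCR trained 2 was lower than HCR trained 3, so the low values of that probe set were not confined to 1 array. The LIM protein Fhl2 read 4.74 on HCR trained 3 and 9.46 to 10.22 on the other 7 arrays. Without that array the differences of Tnnt1 and Fhl2 went from -1.10 to -0.21 and from -1.60 to -0.42.

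The markers chosen for fast fibres of neighbouring muscle, 7 measured genes that are also among the fast fibre genes, were all above 0, with a median of 2.99 (1.89 without HCR trained 3). Their levels summed on the linear scale ran from 17252 to 107927 in HCR trained and from 11442 to 25936 in LCR sedentary rats, so the groups overlapped. The summed level of 11 general and slow muscle fibre markers ran from 108925 to 191096 and from 184342 to 195038. Whether fibres of a neighbouring muscle were taken with the soleus was not tested. In whole muscle, fewer cells of a type and less RNA per cell cannot be told apart, here and for every gene below.

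**Figure D2:**
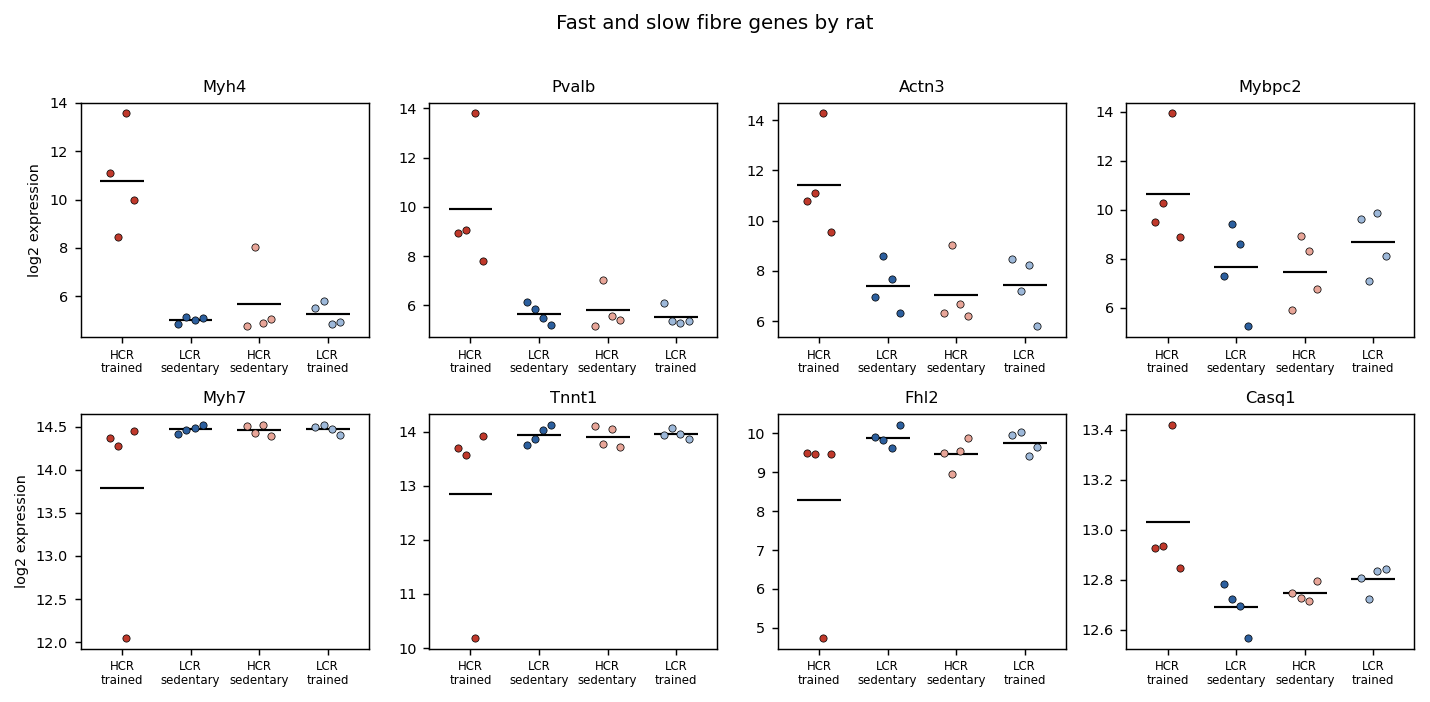
Log2 expression of 5 fast and 3 slow fibre genes, 1 point per rat with a bar at the group mean and a separate vertical scale per panel. Myh4, Pvalb and Actn3 are high in all 4 HCR trained rats, whereas Myh7, Tnnt1 and Fhl2 are low in 1 rat, HCR trained 3. Myh7 is shown by its brighter probe set.

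The other named rises were in genes of unlike function. Sc5d, a late enzyme of cholesterol synthesis, read 7.25, 6.82, 7.48 and 7.19 in HCR trained and 6.09, 6.53, 5.95 and 6.12 in LCR sedentary rats. The difference was 1.01 with a standard error of 0.14 (limma adjusted p = 0.0191), and the other 2 probe sets of the gene gave 0.46 and 0.61 without passing. Its group means were 6.33 in HCR sedentary and 6.49 in LCR trained rats, nearer to LCR sedentary (6.17) than to HCR trained (7.18). St3gal2, a Golgi sialyltransferase, read 9.31, 9.11, 9.29 and 8.85 against 7.91, 8.26, 7.80 and 7.27, a difference of 1.33 (adjusted p = 0.0316), while its other probe set gave 0.34 (adjusted p = 0.494). HCR sedentary and LCR trained means of 8.47 and 8.75 for St3gal2 lay between those of the compared groups. Sc5d was lost without LCR sedentary 1, 3 or 4, and St3gal2 without HCR trained 1 or 2 or LCR sedentary 1, 3 or 4, with differences of 0.91 to 1.13 and 1.15 to 1.48.

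Tstd3, which encodes a protein with a thiosulfate sulfurtransferase-like domain, read 5.50, 5.70, 6.78 and 6.17 against 4.37, 4.78, 4.62 and 4.37. The difference was 1.50 (limma adjusted p = 0.0402), and 1.25 without HCR trained 3 (adjusted p = 0.0330). All LCR sedentary values of Tstd3 and the lowest HCR trained value were below 5.60, the 40th percentile. Dok5, an adapter of receptor tyrosine kinases, was tightly grouped in HCR trained rats at 7.20, 7.24, 7.27 and 7.28, against 6.58, 6.65, 6.72 and 6.19, a difference of 0.71 (adjusted p = 0.0258). Its other probe set gave 0.32 (adjusted p = 0.509). Card19, a protein with a caspase recruitment domain, differed by 0.58 (adjusted p = 0.0475), from 9.65 to 9.93 in LCR sedentary and 10.25 to 10.53 in HCR trained rats. Slc6a17, a neurotransmitter transporter family member, differed by 0.56 (adjusted p = 0.0197), but at levels of 4.31 to 5.18, below the 40th percentile, and it was named after its values were seen. Each of the 4 calls was lost when single arrays were left out: Slc6a17 without HCR trained 2 or LCR sedentary 1, 3 or 4, Dok5 without HCR trained 1, 2 or 4 or LCR sedentary 1, 3 or 4, Tstd3 without HCR trained 2 or 4 or any LCR sedentary array, and Card19 without any array but HCR trained 3. Over the 8 arrays left out in turn, these 4 genes had differences of 0.50 to 0.63, 0.60 to 0.78, 1.25 to 1.68 and 0.53 to 0.63.

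Dpy19l4, a member of the family of C-mannosyltransferases, had the largest fall among named genes past the threshold. It read 5.73, 5.64, 5.39 and 5.64 in HCR trained and 6.51, 6.97, 7.86 and 7.44 in LCR sedentary rats. All HCR trained values were near the 40th percentile and close together, while the LCR sedentary rats spread widely. The difference was -1.59 with a standard error of 0.24 (limma adjusted p = 0.0240), -1.82 to -1.37 with single arrays left out, and lost without HCR trained 2 or 4 or LCR sedentary 3 or 4. Ino80c, a subunit of the INO80 chromatin remodelling complex, read 7.82, 7.72, 7.59 and 7.92 against 8.20, 8.29, 8.46 and 8.45, a difference of -0.59 (adjusted p = 0.0240) that was lost without HCR trained 2 or LCR sedentary 3 or 4 (-0.64 to -0.53). Its brighter probe set gave -0.42 with overlapping groups (adjusted p = 0.425).

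The 2 smallest p-values, ahead of Cox7a1, belonged to probe sets without a gene symbol, and so did the next 2 after it; all 4 were chosen for description after their values were seen. Probe set 1374583_at read 6.72, 6.83, 6.28 and 6.67 in HCR trained and 8.05, 8.08, 7.82 and 7.89 in LCR sedentary rats, a difference of -1.33 with a standard error of 0.11 (limma adjusted p = 1.66e-04). HCR sedentary rats, at 6.55 to 6.93, lay with the HCR trained rats, and LCR trained rats, at 7.65 to 7.81, near the LCR sedentary ones. Probe set 1389458_at read 5.27, 5.49, 5.70 and 5.10 against 6.96, 7.13, 6.68 and 6.73, a difference of -1.48 (adjusted p = 2.79e-04), with the other groups at 6.20 to 6.89. Probe set 1382229_at read 10.34, 9.78, 9.89 and 10.06 against 11.27, 10.75, 11.04 and 11.06, a difference of -1.01 (adjusted p = 0.00518). Probe set 1371775_at was higher in HCR trained rats, 11.40 to 11.43 against 10.08 to 10.58, a difference of 1.06 (adjusted p = 0.00670).

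The question left by the comparison, whether a difference goes with training or with line, was approached through LCR trained against HCR sedentary rats, which shares no array with it. There a gene that follows training alone keeps its sign and a gene that follows line alone turns it. For a gene that differs mainly in 1 of the groups, the sign there does not sort it. Both comparisons use 1 estimate of the spread. That comparison called 9 probe sets (0.029%), 4 higher and 5 lower in LCR trained rats, and 2 carry a symbol, Cox7a1 and the cytochrome P450 gene Cyp2j4. An array used there, HCR sedentary 2, stood apart from its group. Its beta-actin index was 0.384, against 1.32 to 1.59 for the other HCR sedentary arrays. Its mean correlation with its group was 0.971, against 0.982 to 0.985. Without HCR sedentary 2 that comparison called 11 probe sets, with 8 of the 9 kept. The comparisons shared 3 called probe sets, 13.6% of the 22 and 33.3% of the 9: Cox7a1 kept its sign, 1374583_at turned from -1.33 to 1.03 (adjusted p = 0.00149) and 1371775_at from 1.06 to -1.24 (adjusted p = 0.00149). Cyp2j4 was 0.71 in the first comparison without passing (adjusted p = 0.207) and -1.38 in the second (adjusted p = 0.0199).

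Of the 14 probe sets higher in HCR trained than in LCR sedentary rats, 10 had the same sign in LCR trained against HCR sedentary rats and 4 the opposite. Of the 8 that were lower, 1 had the same sign and 7 the opposite. These counts include probe sets that differed mainly in HCR trained rats. Among them was 1389458_at, at 0.42 there, whose difference between trained and sedentary rats was -0.99 in HCR and -0.07 in LCR. Over all probe sets, 46.6% had the same sign. Dpy19l4 turned from -1.59 to 1.0 (limma adjusted p = 0.246 in the second comparison), with means of 5.60 in HCR trained, 6.42 in HCR sedentary, 7.19 in LCR sedentary and 7.42 in LCR trained rats. Myh4, Sc5d, Slc6a17 and Tstd3 gave -0.40, 0.16, -0.02 and 0.49 there, none past the threshold. Slc6a17 had a mean of 5.00 in HCR trained rats. Its means were 4.44 in LCR sedentary, 4.45 in HCR sedentary and 4.43 in LCR trained rats. The interaction of line and training passed for 0 probe sets (0%) by limma, with 5673 at an unadjusted p under 0.05. Its smallest adjusted p was 0.0801. It passed for 24 without HCR trained 3 and for 185 without HCR sedentary 4. The 5673 fell to 1305 once beta-actin values entered the model, and to 4526 with GAPDH values, with 0 passing in both. The beta-actin index ran from 1.57 to 2.37 in HCR trained and from 1.06 to 1.36 in LCR trained rats. In sedentary rats it ran from 0.384 to 1.59 in HCR and from 1.33 to 2.07 in LCR. The cause of the fall was not tested.

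**Figure D3:**
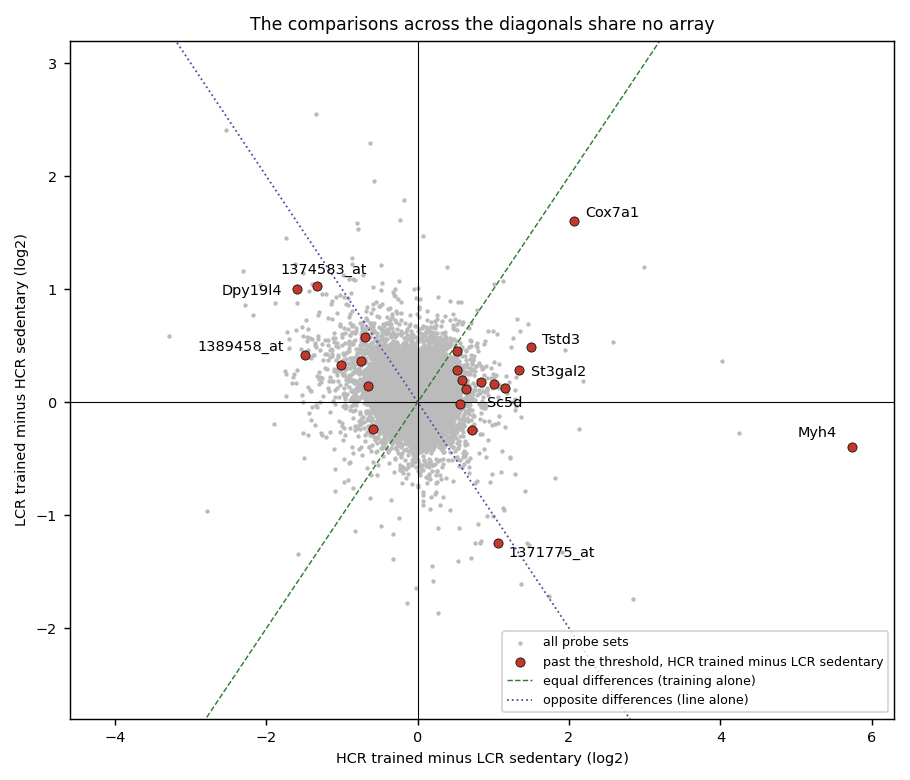
Log2 difference of every probe set in HCR trained minus LCR sedentary rats (horizontal) and in LCR trained minus HCR sedentary rats (vertical), with the 22 probe sets past the threshold in the first comparison in red. Cox7a1 lies near the dashed line of equal differences, 1374583_at and 1371775_at near the dotted line of opposite differences, and Myh4 far out on the horizontal axis.

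Just outside the threshold, with no array overlapping between groups, lay Smpdl3a (0.90, limma adjusted p = 0.050, above the limit before rounding), a sphingomyelinase-like phosphodiesterase, the uncharacterised LOC102547411 (1.35, adjusted p = 0.0537), the growth factor Egf (0.85, adjusted p = 0.0537), Cuedc2 (0.63, adjusted p = 0.0608) and Crybg3 (0.63, adjusted p = 0.0742). On the lower side lay Snap23 (-0.61, adjusted p = 0.0519), a membrane fusion protein whose other probe set gave 0.14 (adjusted p = 0.670), Acsf2 (-1.62, adjusted p = 0.0519), the phosphatase regulator Ppp1r10 (-0.67, adjusted p = 0.0543), the chromatin protein Epc1 (-0.50, adjusted p = 0.0589), whose brighter probe set gave -0.07 (adjusted p = 0.773), and Lrrfip1 (-0.82, adjusted p = 0.0589), whose other probe sets gave -0.97 and -0.15 (adjusted p = 0.320 and 0.565). Acsf2, a mitochondrial acyl-CoA synthetase, read 8.61, 7.98, 6.78 and 8.20 in HCR trained and 9.70, 9.43, 9.39 and 9.52 in LCR sedentary rats. It was 1.22 in LCR trained against HCR sedentary rats (adjusted p = 0.237), the opposite sign. Without HCR trained 3 the Acsf2 difference was -1.25 and passed (adjusted p = 0.0180), as did Smpdl3a (0.73), Egf (0.95), Snap23 (-0.65), Epc1 (-0.53) and Lrrfip1 (-0.68).

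Among the mitochondrial lists Cox7a1 alone passed. Of 34 complex I subunits, 25 were above 0 with a median of 0.09 and 0 passed; the largest evidence was for the flavoprotein-arm subunit Ndufv3, which read 11.66, 11.75, 11.96 and 11.52 against 11.26, 11.36, 11.10 and 10.91 (0.56, limma adjusted p = 0.280). Of 26 genes of complexes II to IV, 19 were above 0 with a median of 0.07 and 1 passed, Cox7a1. ATP synthase had 8 of 14 above 0 and a median of 0.02 (0.04 without HCR trained 3), and mitochondrial ribosomal proteins 56 of 73 and 0.08, with Mrpl39 at 0.43 and Mrpl42 at 0.41, neither past the threshold (adjusted p = 0.296 and 0.326). The medians of complexes II to IV and of ATP synthase were below 0 when the beta-actin index was fitted as a covariate. Those of complex I and of mitochondrial ribosomal proteins then fell to 0.03 and 0.01. In the citric acid cycle 11 of 23 were above 0 (14 without HCR trained 3); the isocitrate dehydrogenase subunit Idh3a read 11.17, 11.20, 12.21 and 10.91 against 10.61, 10.85, 10.49 and 10.00 (0.89, adjusted p = 0.192). Cs, citrate synthase and a common index of mitochondrial content, differed by 0.21 with overlapping groups (adjusted p = 0.557), and its other 3 probe sets gave -0.18 to 0.26. Ppargc1a, the coactivator of mitochondrial biogenesis, differed by 0.12 (adjusted p = 0.888), or 0.06 without HCR trained 3. A second Ppargc1a probe set gave 0.53 without overlap, 8.01 to 8.33 against 7.34 to 7.84 (adjusted p = 0.634), and a dim one -0.05. The 30 mitochondrial biogenesis and PPAR regulators had a median of 0.01 (-0.01 without HCR trained 3), and the 13 fusion and fission genes 0.05 (0.03 without it), with the inner membrane protease Oma1 at 0.40 (adjusted p = 0.251).

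Fat and glucose genes gave no further call. Fatty acid oxidation had 15 of 28 above 0 and a median of 0.04, or 0.13 without HCR trained 3, and -0.20 with the beta-actin covariate. Its examples by p were the peroxisomal reductase Pecr (0.46, limma adjusted p = 0.299) and the acyl-CoA dehydrogenase Acad11 (1.12, adjusted p = 0.381). Cpt1b, the muscle gate of fatty acid entry into mitochondria, differed by -0.28 (adjusted p = 0.676), or -0.10 without HCR trained 3. Among 26 fatty acid uptake and storage genes, 17 were above 0 with a median of 0.10; the acyl-CoA synthetases Acsl3 and Acsl6 were at 0.54 and 0.63, whereas Acsf2 was at -1.62, as given above. Lpl, lipoprotein lipase, differed by -0.61 (adjusted p = 0.646), and by -0.03 without HCR trained 3. Glycolysis and glycogen genes had 21 of 28 above 0 and a median of 0.20, which was 0.03 without HCR trained 3, with Pgk1 at 0.31 and Aldoa at 0.21 (0.13 without that array). Hexokinase Hk2 went the other way at -0.90 with overlapping groups (adjusted p = 0.340). The glucose transporter Slc2a4 was at 0.03 (0.08 without HCR trained 3) and at -0.45 by its other probe set, neither past the threshold. The 2 probe sets of the pyruvate dehydrogenase kinase Pdk4 had opposite signs, 0.64 for the brighter (0.22 to 1.23 with single arrays left out) and -0.96 for the other (limma adjusted p = 0.761 and 0.562), so no direction is given. The uncoupling protein Ucp3 was at 0.98 (adjusted p = 0.502), or 0.58 without HCR trained 3. Insulin signalling genes had 14 of 28 above 0; Igf2, a growth factor, read 9.47, 9.06, 8.62 and 9.07 against 10.25, 10.49, 10.44 and 10.09 without overlap (-1.26, adjusted p = 0.136).

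Chaperones, immediate early genes and cytosolic ribosomal proteins were mostly below 0, and the medians of these 3 lists stayed below 0 under every alternative tried. So did the medians of clock genes, slow fibre genes, general muscle fibre markers and blood cell markers. In LCR trained against HCR sedentary rats the medians of the 3 lists were -0.01, -0.09 and -0.12. Of 28 heat shock and chaperone genes, 3 were above 0 with a median of -0.22 (5 and -0.13 without HCR trained 3), and 7 were lower at an unadjusted p under 0.05, where 4.12% of all genes were, though 0 passed. Hspa2 read 6.69, 6.02, 5.20 and 6.57 against 6.96, 6.99, 7.37 and 7.29 (-1.03, limma adjusted p = 0.156), and the co-chaperone Bag3 11.47, 11.37, 10.68 and 11.63 against 12.01, 11.68, 11.71 and 11.91 (-0.54, adjusted p = 0.245, or -0.34 without HCR trained 3). For both genes the groups did not overlap and HCR trained 3 was lowest. Hsp90ab1 and the mitochondrial chaperonin Hspd1 differed by -0.31 and -0.25.

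Of 24 immediate early genes, which respond within minutes to contraction or stress, 4 were above 0 (8 without HCR trained 3) with a median of -0.14 and 0 passed, with 5 lower at an unadjusted p under 0.05. Fos read 8.18, 8.45, 8.04 and 7.95 in HCR trained and 9.43, 10.17, 9.12 and 9.69 in LCR sedentary rats (-1.45, limma adjusted p = 0.114). Nr4a2, an orphan nuclear receptor, read 6.06, 6.04, 6.25 and 5.52 against 6.49, 8.08, 6.91 and 8.44 (-1.51, adjusted p = 0.145). The LCR sedentary rats varied more for Nr4a2 than the HCR trained rats, and the groups did not overlap for either gene. Ier3 differed by -1.42, or -0.90 without HCR trained 3, and Jun by -0.52 with overlap. Fos and Nr4a2 were -0.29 and -0.50 in LCR trained against HCR sedentary rats. Of 42 cytosolic ribosomal protein genes, 6 were above 0 (9 without HCR trained 3) with a median of -0.09 and 0 passed; Rpsa and Rps6 were at -0.25 and -0.22.

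Calcium handling genes had 25 of 39 above 0, a median of 0.06 (-0.01 without HCR trained 3) and 0 passed. Rcan1, a calcineurin regulator, read 11.04, 10.39, 8.40 and 10.26 against 11.64, 11.38, 11.51 and 11.38 (-1.46, limma adjusted p = 0.228), with HCR trained 3 lowest. Without that array the Rcan1 difference was -0.91 (adjusted p = 0.197). Atp2b3, a plasma membrane calcium pump, Slc8a1, the sodium-calcium exchanger, and Nfatc3, a target of calcineurin, were at 0.71, 0.72 and 0.30, and Atp2b3 at 0.45 without HCR trained 3. Antioxidant genes had 13 of 30 above 0 (19 without HCR trained 3); the cytosolic dismutase Sod1 was lower on all 4 HCR trained arrays, 12.19 to 12.32 against 12.43 to 12.50 (-0.23, adjusted p = 0.182), while Gstm1 and the extracellular dismutase Sod3 were at 0.37 and 0.48 (Sod3 at 0.24 without HCR trained 3). Protein breakdown and autophagy genes had 15 of 26 above 0 (10 without HCR trained 3); the ubiquitin ligase Traf6 read 7.74, 7.68, 7.75 and 7.58 against 7.11, 7.32, 7.20 and 7.47 without overlap (0.41, adjusted p = 0.0984), and Map1lc3a was at 0.43. Among 28 amino acid breakdown genes, 14 were above 0, with the leucine pathway enzyme Auh at 0.49 (adjusted p = 0.111). Angiogenesis and hypoxia genes had 14 of 22 above 0, with Vegfa at 0.09 (adjusted p = 0.874), or 0.04 without HCR trained 3, and Fgf1 at -1.14, or -0.61 without it. The other Vegfa probe set gave -0.50 (adjusted p = 0.561). The 37 collagen and matrix genes had a median of -0.01, which was 0.15 with 24 above 0 without HCR trained 3 and 0.20 with the beta-actin covariate. The 18 clock genes had a median of -0.08, or -0.13 without HCR trained 3. Both lists had 0 genes past the threshold and 0 at an unadjusted p under 0.05.

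Markers of other cells in the sample showed no call apart from Myh4. Endothelial markers had 9 of 11 above 0 and a median of 0.15 (0.26 without HCR trained 3), with the junction protein Pecam1 at 0.40 (limma adjusted p = 0.338) and, without HCR trained 3, at 0.57 (adjusted p = 0.0330). In LCR trained against HCR sedentary rats 11 of 11 endothelial markers were above 0 with a median of 0.26. Adipocyte markers had 7 of 9 above 0 and a median of 0.11, or 0.58 without HCR trained 3 and -0.09 without HCR trained 1. Their summed level, 1627 to 7341 in HCR trained and 2404 to 3398 in LCR sedentary rats, overlapped. In LCR trained against HCR sedentary rats 2 of 9 adipocyte markers were above 0, with a median of -0.25. Macrophage and leukocyte markers had 13 of 19 above 0 with a median of 0.10, or 0.23 without HCR trained 3. Fibroblast markers had 2 of 10 above 0 with a median of -0.13, or 5 of 10 with a median near 0 without HCR trained 3, with Pi16 at -0.58 (adjusted p = 0.235). Satellite cell markers had 4 of 7 above 0, with Cdh15 at 0.56 (adjusted p = 0.156), smooth muscle and pericyte markers 6 of 11, Schwann cell and nerve markers 4 of 8, tendon markers 4 of 6, blood cell markers 1 of 4 and spindle and cardiac-type fibre markers 2 of 4. Without HCR trained 3 the smooth muscle and pericyte markers had 10 of 11 above 0 with a median of 0.13, and the spindle and cardiac-type fibre markers 3 of 4 with a median of 0.47, against -0.04 with it. Schwann cell and nerve markers had 6 of 8, tendon markers 3 of 6 and blood cell markers 0 of 4 without that array. With HCR trained 1 left out instead, the smooth muscle and pericyte median was -0.08. The part of these cells in the differences above was not tested. General muscle fibre markers were bright in both groups, with medians of the group means of 13.74 in HCR trained and 14.12 in LCR sedentary rats. Relative to each gene's mean over all arrays, their mean on HCR trained 3 was -1.12. On the other HCR trained arrays it was -0.04 to 0.11. Whether the sample of HCR trained 3 was all soleus was not tested. Myoglobin, Mb, the oxygen store of red fibres, differed by -0.02 (adjusted p = 0.947), or 0.04 without HCR trained 3.

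**Figure D4:**
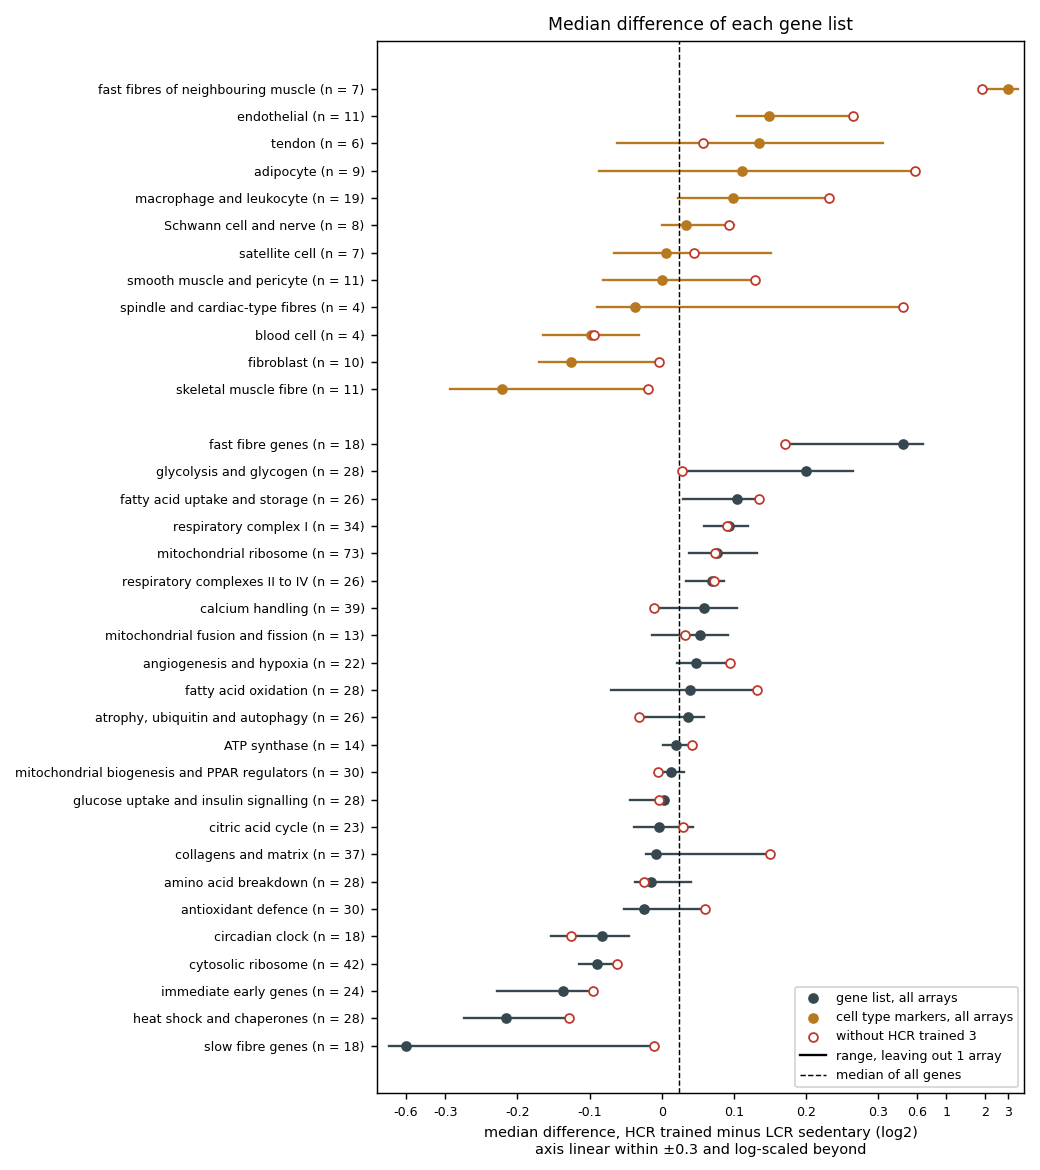
Median log2 difference of each gene list (dark) and cell type marker list (ochre) in HCR trained minus LCR sedentary rats, with the range over leaving out each of the 8 arrays (line) and the median without HCR trained 3 (open red circle), on an axis that is linear within 0.3 of 0 and logarithmic beyond. The slow fibre median moves from -0.61 to -0.01 without that array, while the heat shock, immediate early and cytosolic ribosome medians stay below 0 with each array left out.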

How the data were processed

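RNA of 16 soleus muscles, 1 per rat, was measured on Affymetrix arrays. The values are the authors' deposited log2 expression per probe set. Per the submitters' processing notes, RMA (background correction, quantile normalization and probe summary) and limma were used; their versions, and whether 1 RMA run covered the 16 arrays, are not given in the sources used here. Because quantile normalization takes out any array-wide shift, a difference is relative to most other probe sets. RMA gives no detection calls. Scan dates were not used here.

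After 57 control probe sets were left out, 31042 entered a model of 4 group means over 16 arrays (limma 3.58.1, R 4.3.3), with empirical Bayes moderation and Benjamini-Hochberg adjustment at 0.05. The labels describe separate rats. Genes were named from the platform annotation: 20826 probe sets had 1 symbol, 436 several and 9780 none; 20758 were found in the RefSeq table of GRCr8 and 0 symbols changed. Lists (23 of genes, 12 of cell type markers) took for each of 14217 genes its brightest probe set. The members, lists and key genes were chosen with earlier results of these data known.

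Genes named are those with 1 symbol that passed and whose brighter group mean reached 5.60, the 40th percentile of all values, at most 15 per direction by size, with the probe set of smallest p. Where fewer than 10 passed in a direction, the next 5 by p were added. Up to 4 examples per list by p and 16 key genes were also named. Alternatives were other scalings, filters, variance models, array weights, covariates for RNA quality, a replicate block and arrays left out. The procedure was tested on simulated data.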

Additional observations from a re-analysis of the deposited data

Results flagged for a closer look

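In groups of 4 rats, a value was marked when its gap to the nearest of the others was too large a share of the group's range by Dixon's test. Chance marks about 1 group in 20, and 24 of 260 groups tested were marked, 16 of them for HCR trained 3.

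On HCR trained 3 the transcripts Myh7 (12.05), Tnnt1 (10.19), Fhl2 (4.74), Lmcd1 (10.09), Lpl (10.52), Fgf1 (7.84) and Ier3 (7.45) were low. On the same array Casq1 (13.42), Atp2b3 (7.61), Mrpl39 (8.35), Pecr (9.54) and Slc6a17 (5.18) were high. Its list means, relative to each gene's mean over all arrays, were -2.41 for slow fibre genes, -1.12 for muscle fibre markers, -1.32 for spindle and cardiac-type fibre markers and -0.196 for angiogenesis and hypoxia genes, all low.

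Other single rats stood apart for fewer values. LCR sedentary 2 was high for Oma1 (7.87) and for the list means of collagen and matrix genes (0.0284, against -0.474 to -0.426 in its group) and of macrophage and leukocyte markers (0.0770, against -0.360 to -0.341). LCR sedentary 3 was high for Ucp3 (8.50) and LCR sedentary 4 low for Aldoa (13.94). HCR trained 4 was low for Epc1 (5.88), HCR trained 2 was low for the amino acid breakdown mean (-0.00493), and HCR trained 1 was high for the unnamed probe set 1391710_at (5.73).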

How the results depend on the processing

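The 22 calls of HCR trained against LCR sedentary rats became 21 after quantile normalization, 20 after median centring, 25 without dim probe sets, 26 with trend and robust moderation and 27 with the beta-actin covariate. They became 8 among probe sets with 1 symbol, 883 with array weights (569 higher, 314 lower), 4 with the 8 arrays alone, 14 with the GAPDH covariate and 3 for a fold of at least 1.5. Leaving out single arrays gave 5 to 86. Without HCR sedentary 2, chosen after seeing the data, the count was 34, and 172 without HCR trained 3 and HCR sedentary 2. For LCR trained against HCR sedentary rats the 9 calls became 0 among probe sets with 1 symbol, 484 with array weights, 15 with the beta-actin covariate, 0 for a fold of at least 1.5, 43 without both arrays and 4 to 11 with single arrays left out (5 without HCR sedentary 3, HCR sedentary 4 or LCR trained 1, and 4 without LCR trained 4). The interaction, with 0 calls, gave 1 after quantile normalization, 1 after centring, 233 with array weights, 22 without both arrays, 1 without HCR sedentary 2 and 0 to 185 with single arrays left out (24 without HCR trained 3, 185 without HCR sedentary 4); it has no value in the 8 arrays alone. The causes were not tested.

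Replicate numbers showed no clear pairing of HCR trained with LCR sedentary rats. Correlations of same-numbered deviations were -0.386, 0.126, 0.282 and -0.0694, and 1 number of 4 matched its own best. With only 4 numbers, this check cannot exclude a pairing. With the number as a replicate block, 11 probe sets passed in the first comparison (8 of the 22) and 5 in the second.

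Differences of genes and control indices that turned sign were small and not called. They were Myh1 (-0.0180) and Vegfa (-0.000405) without HCR trained 3 and 2, a pair chosen after seeing the data, Myh2 (-0.0380) without LCR sedentary 4 (-0.0380 to 0.226 over single arrays), and Vegfa (-0.0602) and Ppargc1a (-0.00192) with array weights. Mb turned to 0.0360 with array weights, 0.0417 without HCR trained 3 (-0.0623 to 0.0417 over single arrays) and 0.0773 without HCR trained 3 and 2. Slc2a4 was -0.124 with the beta-actin covariate, -0.0234 without HCR trained 4 and -0.00762 without LCR sedentary 3 (-0.0234 to 0.114 over single arrays), and the GAPDH index difference was -0.00916 without HCR trained 2 (up to 0.386). Of the other values, 2396 were labelled the same, 182 lost the call, 67 gained it and 12 list medians moved. For genes, the same meant an unchanged direction and side of the threshold. For list medians it meant a change smaller than the spread between arrays, so some of these medians turned sign. The fatty acid oxidation median, for example, went from 0.04 to -0.07 without HCR trained 2. Cox7a1 passed in every alternative except the 8 arrays alone (adjusted p = 0.119). With 4 arrays a group, small differences cannot be resolved.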
